A study of Mus musculus with 4 samples.

Results

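The data concern 33 type I interferon response genes, measured in leukocytes of mouse fibrosarcomas. The genes were a fixed list matched by symbol, and all 33 were found once each among the 31053 genes of the deposited tables. The tumours were harvested 11 days after implantation and were otherwise untreated. Control tumours were labelled Cas9 Control. The other tumours were labelled Raldh1/3 DKO, a double knockout of retinaldehyde dehydrogenases, the enzymes that make retinoic acid. The label describes the tumour, while the cells examined are leukocytes, and no strain, age or number of tumour clones is given. Each library held live CD45+ cells sorted from a pool of 2 tumours, and each group had 2 libraries, so the groups are compared as 2 against 2. The libraries are called control 1, control 2, DKO 1 and DKO 2.

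Type I interferons bind one receptor on nearly every cell, whose kinases activate a signalling cascade. It ends in the factor ISGF3, of which STAT2 and IRF9 are subunits and which binds the interferon-stimulated response element (ISRE) in the promoters of antiviral genes. In tumours the response is known for its link to the priming of T cells by dendritic cells and to recruited monocytes. The 33 genes cover the IFIT and OAS families, sensors of nucleic acids, Ifi200 proteins, transcription factors, the ISG15 system and other antiviral or apoptosis genes.

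The 4 libraries held 30504 barcodes, of which 25881 were kept, with a median of 6544 to 7581 unique molecular identifiers (UMIs) per deposited barcode. Between 53 and 76 barcodes of each library also occurred in another library. Clustering was done without the interferon genes and gave 16029 monocyte/macrophage-like, 5862 T-like, 1529 NK-like, 1203 dendritic-like and 789 neutrophil-like cells. Between 77.2% and 94.2% of the cells in each T-like cluster had a Cd3e UMI, and 199 collagen-rich tumour or fibroblast-like cells had passed the sort. Ptprc, which encodes CD45, had 43711 to 50837 UMIs in each library. The targeted genes check little here, since sorted leukocytes hold almost no tumour cells. Aldh1a1 had 1, 0, 0 and 1 UMIs and Aldh1a3 28, 9, 10 and 23 in control 1, control 2, DKO 1 and DKO 2.

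RefSeq promoter windows, from 250 bases before to 50 bases after a start site on GRCm38.p6, were matched for 24 of the 33 genes. The windows of 14 of these 24 genes held the ISRE core, searched as GAAANNGAAA and, for the other strand, TTTCNNTTTC. The same letters stood in a window of 3.99% of the 27025 genes in the table. It also stood in windows of 11 of 15 genes induced mainly by interferon gamma and of 24 of 58 other interferon-stimulated genes, so it is not particular to the 33. Matches are descriptions of the letters only, and overlapping matches are each counted. Isg15 and Ifit1, the members with the highest level in their families that hold the core, are shown on the strand of the gene, 5′ to 3′, with all matches to the ISRE core in capitals. Ifit3 and Ifit3b are added because all 84 of the shown bases were the same in both.
Isg15 (chr4:156200855-156200916, minus strand): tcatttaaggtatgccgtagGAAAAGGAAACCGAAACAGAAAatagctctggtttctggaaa
Ifit1 (chr19:34640765-34640833, plus strand): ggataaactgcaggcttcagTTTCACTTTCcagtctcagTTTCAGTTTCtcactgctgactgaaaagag
Ifit3 (chr19:34583353-34583436, plus strand): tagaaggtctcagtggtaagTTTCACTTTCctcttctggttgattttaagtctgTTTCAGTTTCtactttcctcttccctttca
Ifit3b (chr19:34607749-34607832, plus strand): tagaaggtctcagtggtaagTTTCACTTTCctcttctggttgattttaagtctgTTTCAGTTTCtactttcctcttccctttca
Isg15 held 3 overlapping cores and Ifit1, Ifit3 and Ifit3b held 2 each. The 4 Ifit genes lie together on chromosome 19 and the 5 OAS family genes on chromosome 5. Rsad2 (chr12:26442746-26456452) and Cmpk2 (chr12:26469204-26479837) are neighbours read in opposite directions. Counts of Ifit3, Ifit3b, Oas1a, Ifi204 and Trim30a are less certain than others, since each has close relatives to which reads could have been assigned.

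Levels are given as scaled CPM: the UMIs of a gene set against all UMIs of that cell class in that library and adjusted by a trimmed mean of M-values (TMM) factor. They count transcript ends, so they do not depend on gene length. Levels between cell classes are descriptions without a test, as the classes were drawn from the same cells.

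**Figure D1:**
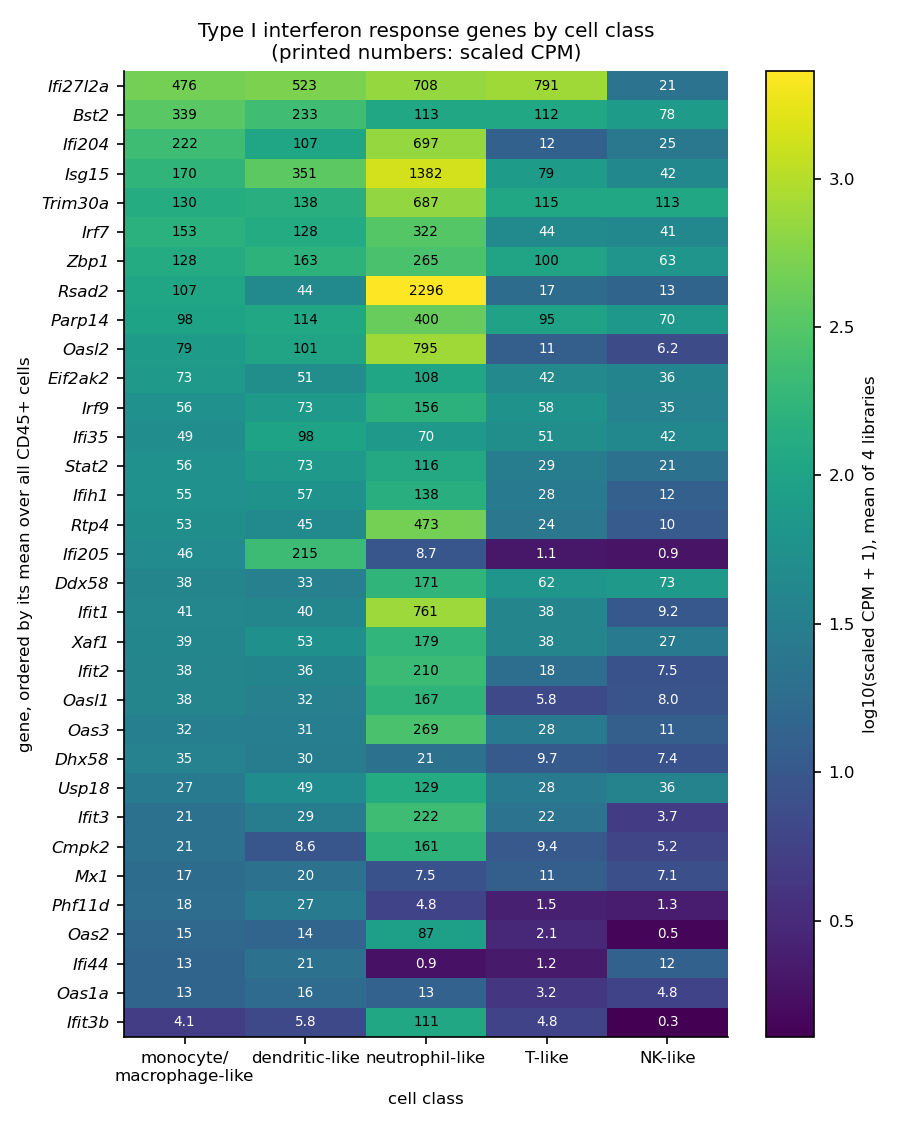
Mean scaled CPM over the 4 libraries for each of the 33 genes (rows, ordered by their mean over all CD45+ cells) in 5 cell classes (columns), coloured on a log10 scale. The neutrophil-like column holds the highest value for 24 genes, with Rsad2 at 2296 scaled CPM.

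Neutrophil-like cells gave the largest share of their RNA to these genes. The 33 genes summed to 11312 and 13730 scaled CPM in control 1 and control 2, and to 11918 and 8029 in DKO 1 and DKO 2. In monocyte/macrophage-like cells the sums were 2339, 3283, 3024 and 2146 in the same order. In dendritic-like cells they were 2728, 3604, 3279 and 2226. T-like cells were lower, at 1962, 2200, 1765 and 1643, and NK-like cells lowest, at 887, 818, 929 and 731. The order of neutrophil-like over myeloid over NK-like cells held in all 4 libraries, while monocyte/macrophage-like and dendritic-like cells overlapped.

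The high share in neutrophil-like cells went with little RNA. These cells held 1646 to 2130 UMIs each, against 10008 to 13885 in monocyte/macrophage-like cells. Counted per cell, the 33 genes gave 20.1, 22.4, 20.3 and 18.3 UMIs in neutrophil-like cells, and 23.9, 31.6, 39.0 and 30.7 in monocyte/macrophage-like cells. A neutrophil-like cell thus held no more of these transcripts than a macrophage-like cell, in each of the 4 libraries. The part that depth plays in the CPM order was not tested further.

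**Figure D2:**
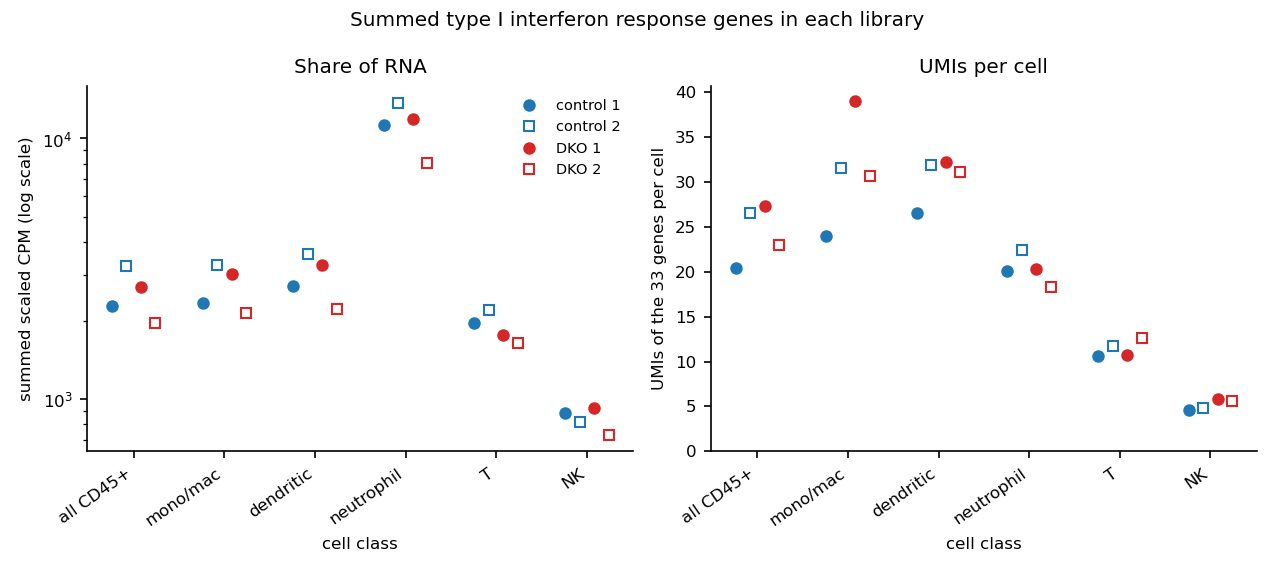
Left, summed scaled CPM of the 33 genes (log axis) and right, their UMIs per cell, by cell class, with 1 point per library. Neutrophil-like cells lead on the left and not on the right, and control 2 and DKO 1 are the upper points in monocyte/macrophage-like and dendritic-like cells.

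Individual genes did not all share that order. Rsad2, or viperin, which makes an antiviral nucleotide, had a mean of 2296 scaled CPM in neutrophil-like cells and 107 in monocyte/macrophage-like cells. Ifit1, which binds foreign RNA, had 761 and 40.7. Among the classes with at least 50 cells in every library, 24 of the 33 genes were highest in neutrophil-like cells, and in each of the 4 libraries. Of the same classes, Bst2, or tetherin, which holds budding virus at the cell surface, was highest in monocyte/macrophage-like cells at 339 scaled CPM, as was Dhx58 at 34.6. Ifi205, an Ifi200 protein, was highest in dendritic-like cells at 215, and Mx1, Phf11d, Ifi35, Ifi44 and Oas1a also led there. Ifi27l2a was the exception among lymphocytes, with 791 in T-like cells and 21.2 in NK-like cells. The 91 plasmacytoid dendritic-like cells were too few to test and are left out of these rankings. In them the 33 genes summed to between 4535 (DKO 1) and 6147 (control 2) scaled CPM. Their Bst2, long used as a surface marker of that cell type in mice, was at 3021, 3188, 3367 and 2555 scaled CPM, and their Irf7 at 265, 267, 226 and 216.

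Type I interferon transcripts themselves were nearly absent. Ifnb1 had 1, 6, 4 and 3 UMIs in control 1, control 2, DKO 1 and DKO 2, with 13 of the 14 in monocyte/macrophage-like cells. All 13 listed Ifna genes had 0 UMIs, which allows up to 0.0442 CPM in control 1 and 0.0581 in DKO 2, counting error only. Ifng, the type II interferon, had 2491, 2181, 5588 and 2847 UMIs, of which 11437 of 13107 lay in T-like cells. DKO 1 was far above the other libraries, and the log2 change over all CD45+ cells was 0.98 ± 0.25 (SE, edgeR adjusted p = 0.291). Within T-like cells the change was 0.29 (edgeR adjusted p = 0.805), and within NK-like cells 0.01 (edgeR adjusted p = 0.988). T-like cells were 1546 and 1116 of 7642 and 7416 cells in the controls, and 1845 and 1355 of 6177 and 4646 in DKO.

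Within monocyte/macrophage-like cells the genes were highest in a classical monocyte sub-cluster, though not in every sub-cluster named monocyte from its markers. Of 16 sub-clusters, 13 had at least 20 cells in every library. The sub-cluster led by Dmkn, Slpi, Vcan, Plac8 and Hp, classical monocyte genes among them, was highest in each library, with sums of 5808, 6605, 8924 and 7304 scaled CPM. It held the highest mean of 26 of the 33 genes. Next came the sub-cluster led by Hp, Ifitm6 and Plac8, with Ace and Ly6c2, at 4412, 4894, 5800 and 4289. The sub-cluster led by Nos2 and Ly6i followed at 3929, 5571, 4182 and 2846. The sub-cluster led by Ccl24 and Chil3 was lower, at 1972, 2403, 2702 and 1961. It was named monocyte on a weaker marker score, 1.01 against 3.04 for the Dmkn sub-cluster. It lay below the sub-cluster led by Cxcl9 and Axl, at 2501, 3419, 3862 and 2588, named macrophage on a score of only 0.03. These 2 names are therefore less certain. Macrophage sub-clusters led by Cd163 and Retnla, at 1689, 1756, 1921 and 1554, and by Mcm5 and Mcm6, genes of DNA replication, at 1401, 1923, 1967 and 1159, were lowest. The genes were thus about as high in replicating as in Cd163 macrophages, and these neighbours overlapped.

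Bst2 ran against that order. Its mean was 467 scaled CPM in the macrophages led by Pf4 and Ccl8, and 233 in the classical monocytes. Isg15, a ubiquitin-like protein that is joined to other proteins, was 628 in the classical monocytes and 97.7 in the Pf4 macrophages. Rsad2 was highest, at 355, in the sub-cluster led by Cxcl3, Mmp12 and Mt2.

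**Figure D3:**
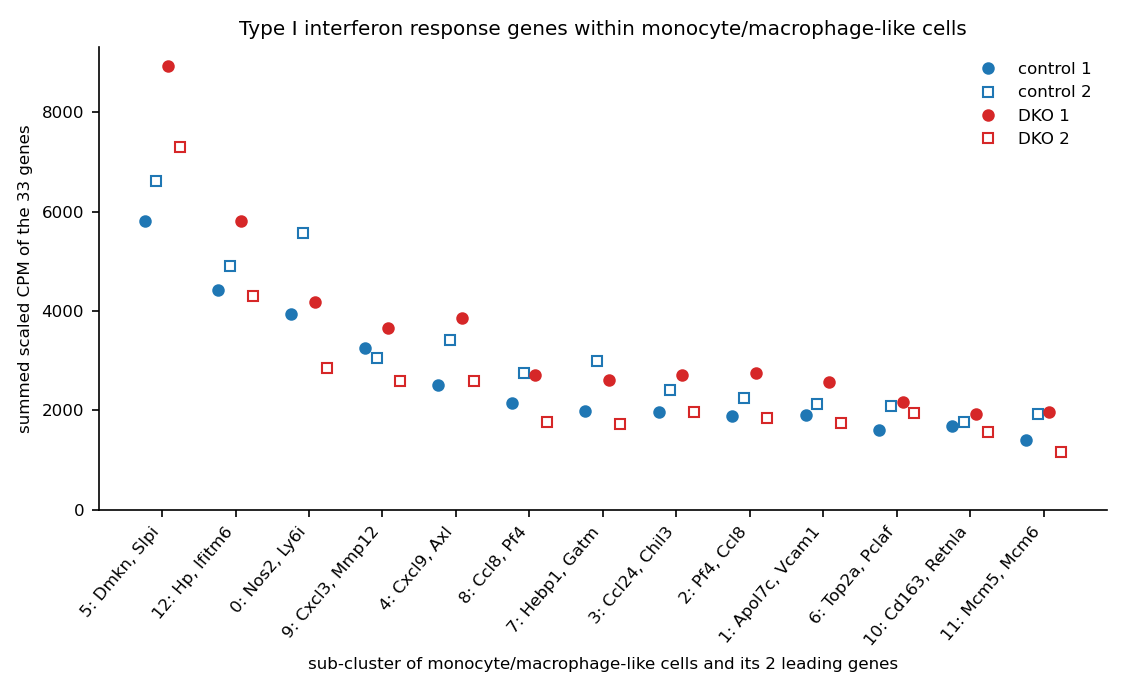
Summed scaled CPM of the 33 genes in each sub-cluster of monocyte/macrophage-like cells with at least 20 cells per library, 1 point per library, ordered by the mean and labelled by 2 leading genes. Sub-cluster 5, led by Dmkn and Slpi, is highest in each library, and DKO 1 is the upper point in 10 of 13 sub-clusters.

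The response was spread unevenly over cells. Monocyte/macrophage-like cells were thinned to 3000 UMIs each, which left out 773, 517, 412 and 299 shallower cells of control 1, control 2, DKO 1 and DKO 2. A cell then held a median of 5, 6, 7 and 4 UMIs of the 33 genes. Cells with 10 or more of the genes made up 10.8%, 15.5%, 16.5% and 10.8%, and unthinned 37.6%, 48.9%, 61.4% and 48.8%. The tenth of cells with the most such UMIs held 39.4% to 43.3% of them. In T-like cells treated alike, 4.92%, 4.99%, 3.79% and 4.12% of cells held 10 or more of the genes, and 10.0%, 10.6%, 8.08% and 10.8% unthinned.

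Across 14028 thinned monocyte/macrophage-like cells, each gene was correlated with the sum of the other 32 within a library. Isg15 followed the rest most closely, with a mean Pearson r of 0.571 over the 4 libraries. Ifi204, a cytosolic DNA sensor of the Ifi200 family, had 0.478 and Irf7 0.434. Irf9, a subunit of ISGF3, had the lowest, 0.101, and Oas1a had 0.137. These values are descriptions across cells that share a library, and how far counting noise lowers them was not tested.

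The comparison of DKO with control asked whether the response of the leukocytes differed with the tumour's retinoic acid enzymes. In monocyte/macrophage-like cells, 0 of 33 genes were called by edgeR's quasi-likelihood test at an adjusted p of 0.05 (background 0.00767% of 13046 genes), and the smallest adjusted p among them was 0.600. None had an unadjusted p under 0.05, against a background of 4.28% lower and 4.28% higher. Their median log2 change, DKO over control, was -0.07, and 21 were lower and 12 higher, while all genes had a median of 0.01. DESeq2 called 0 as well. By role, 3 of 4 IFIT genes, 2 of 5 OAS genes, 4 of 5 sensors and 11 of the 12 other antiviral genes were lower, while all 3 transcription factors (0 lower) and both Ifi200 genes (0 lower) were higher. The change of single genes ran from -1.04 for Oas1a to 0.72 for Ifi44.

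The summed level was 2811 ± 668 scaled CPM in control and 2585 ± 621 in DKO monocyte/macrophage-like cells (SD, n = 2 libraries each), so the groups differed by less than the spread within either. Isg15 was at 133 and 223 scaled CPM in control 1 and control 2 and at 225 and 100 in DKO 1 and DKO 2. Irf7, which amplifies the interferon response, was at 116, 157, 206 and 131. Control 2 and DKO 1 were high and control 1 and DKO 2 were low, so the groups overlapped. Zbp1, a sensor of Z-form nucleic acid, showed the same order at 107, 155, 151 and 98.1. Control 2 exceeded control 1 for all 33 genes, and DKO 1 exceeded DKO 2 for 31. Ifi27l2a, the most abundant member, was at 423, 667, 501 and 313, Ifi204 at 185, 257, 241 and 206, Oasl2 at 65.5, 91.5, 85.7 and 72.3, and Ifit1 at 39.7, 47.6, 47.1 and 28.5.

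In all, 3 genes had groups that did not overlap in monocyte/macrophage-like cells, all with DKO higher, against a background of 20.6% of genes (20.1% for lower). Ifi44, an antiviral protein of unclear mechanism, was at 7.61 and 12.5 scaled CPM in the controls and 20.1 and 13.1 in the DKO libraries. Its log2 change was 0.72 ± 0.31 (SE) with an edgeR adjusted p of 0.600. Ifi205 was at 34.0 and 48.4 against 53.3 and 49.0, and Stat2, another subunit of ISGF3, at 47.3 and 56.3 against 57.9 and 60.9. Ifi35 and Oas1a had the smallest p after Ifi44, with overlapping groups. Oas1a, an oligoadenylate synthetase that activates RNase L, was at 25.7 in control 2 and at 9.86, 10.4 and 6.88 in control 1, DKO 1 and DKO 2. Ifi35 was at 46.0, 64.7, 46.3 and 38.5. In both, control 2 stood above the other libraries. Without control 1, Oas1a was called in edgeR (adjusted p = 0.00349) among 293 genes and the median change was -0.30, and without control 2 the median was 0.17.

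The mix of sub-clusters differed between the libraries. The classical monocytes led by Dmkn were 5.13%, 11.6%, 5.29% and 3.39% of the class in control 1, control 2, DKO 1 and DKO 2, highest in the library with the highest sums in this class. The macrophages led by Apol7c and Vcam1 were 11.4%, 3.56%, 20.9% and 24.6%, and those led by Pf4 were 8.71%, 23.9%, 5.77% and 2.76%. Each of the 13 larger sub-clusters was then weighted by its mean share over the libraries, the same in every library. With that mix the 33 genes summed to 2611, 3242, 3447 and 2473 scaled CPM. Then 13 genes were lower in DKO in place of 21, and the median log2 change of mean CPM was 0.08, against -0.07 at the mix as found. These weights are shares of cells, while the mix as found pools UMIs over all sub-clusters, smaller ones included. The 2 medians thus differ in more than the mix, and the part of the mix alone was not tested. Within sub-clusters, control 2 exceeded control 1 in 12 of 13 and DKO 1 exceeded DKO 2 in all 13. The classical monocytes led by Dmkn were the 1 sub-cluster of 13 in which both DKO libraries lay above both controls, a difference that was not tested. The class also held a sub-cluster of 44 cells led by Gzma and Gzmb and one of 32 cells with Xcr1.

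T-like cells showed lower levels in DKO for most of the genes, none of them called. Of 33 genes, 26 were lower, with a median log2 change of -0.31, while all 11301 genes tested had a median of 0.01. The count at an adjusted p of 0.05 was 0 in edgeR (background 0.0442%) and 0 in DESeq2, and the smallest edgeR adjusted p was 0.146. At an unadjusted p of 0.05, 13 were lower and 0 higher, against a background of 7.26% lower and 7.54% higher. The groups did not overlap for 20 genes with DKO lower and 1 with DKO higher, against 23.0% and 24.8% of all genes. The 33 genes vary together, with a median r of 0.205 between a gene and the sum of the others across T-like cells. Such counts, here and in the other classes, are therefore not counts of independent genes.

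Ifit3, an IFIT protein, was at 27.7 and 26.1 scaled CPM in the controls and 18.7 and 13.8 in the DKO libraries, a log2 change of -0.73 ± 0.16 (SE, edgeR adjusted p = 0.146). Both DKO libraries lay below both controls. Bst2 was at 121 and 143 against 99.1 and 87.3, a log2 change of -0.50 ± 0.12 (edgeR adjusted p = 0.167). Isg15 was at 85.3 and 102 against 72.6 and 54.9, at -0.55 ± 0.15 (edgeR adjusted p = 0.199). Usp18, the protease that removes ISG15 and restrains the receptor, was at 28.6 and 37.0 against 21.6 and 23.6. Eif2ak2, the kinase PKR that halts translation on double-stranded RNA, was at 49.9 and 46.4 against 33.7 and 39.0. For each of these 5 genes the groups were separate. Over the 12 alternatives the edgeR or DESeq2 adjusted p of Ifit3 ran from 1.28e-05 to 0.613.

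By role, the T-like differences were not uniform. The ISG15 system was lower in both genes, and the IFIT family in all 4, from -0.73 for Ifit3 to -0.03 for Ifit2. In the OAS family 4 of 5 were lower, with Oas3 at 29.0 and 34.6 scaled CPM in the controls and 24.8 and 21.6 in DKO, and Oas1a at 3.09 and 6.02 against 2.49 and 1.16. Among the sensors and PKR, 4 of 5 were lower. Ddx58, or RIG-I, was at 65.0 and 72.6 against 53.5 and 57.2, Zbp1 was at 102 and 107 against 103 and 88.5 with overlap, and Ifih1, or MDA5, had a positive change of 0.12. The transcription factors were divided. Irf7 was at 43.7 and 52.7 against 38.6 and 39.5, while Irf9 had a change of 0.00 and Stat2 of 0.09. Both Ifi200 genes had positive changes but low levels, with Ifi204 at 9.16 and 12.4 against 15.5 and 11.4. Of the other 12 genes, 10 were lower. Ifi27l2a was at 817 and 947 against 733 and 666, and Ifit1 of the IFIT family at 42.7 and 41.8 against 37.3 and 31.0. Oasl2 overlapped at 12.9 and 11.7 against 8.71 and 12.4. Phf11d, with a mean of 1.51 scaled CPM in these cells, had -0.90. The log2 changes of the remaining genes were -0.55 for Oasl1, -0.43 for Dhx58, -0.36 for Mx1, -0.35 for both Cmpk2 and Xaf1, -0.32 for Ifi35, -0.26 for Rtp4, -0.21 for Ifit3b and -0.17 for both Rsad2 and Parp14. Oas2, with a mean of 2.06 scaled CPM in these cells, had 0.48, Ifi44, also near 1 scaled CPM, had 0.38, both Ifi200 genes had 0.30 to 0.34, and Trim30a had 0.02.

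**Figure D4:**
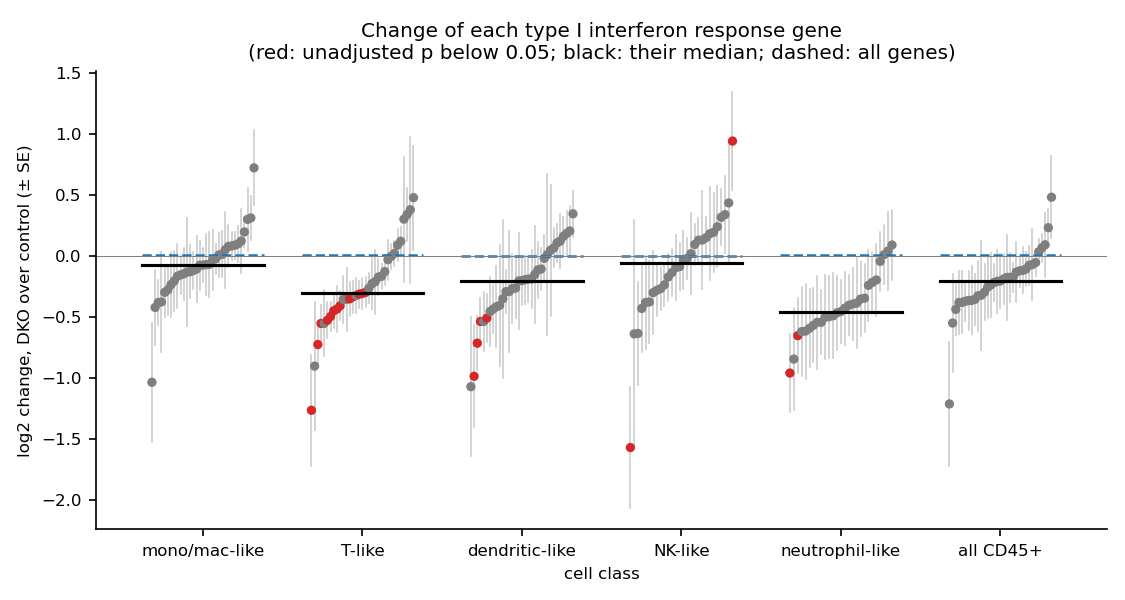
Log2 change of each gene, DKO over control, with its SE from edgeR, in 6 sets of cells, ordered within each set. Red points have an unadjusted p below 0.05, black lines are the medians of the genes and dashed lines those of all genes tested. T-like cells hold 13 red points, all below 0, and no gene passed the adjusted threshold in any set.

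The T-like difference was not even over T-like clusters. In the cluster led by Klra7, Ms4a4b and Xcl1, a set with a Ly49 receptor gene, 31 of 33 genes were lower on the log2 scale of mean CPM plus 1, with a median of -0.37. Across genes with at least 10 CPM there, 48.5% were lower. Its summed level without Ifi27l2a was 1380 and 1625 scaled CPM in the controls and 1282 and 1050 in DKO. The cycling cluster led by Hist1h2ap and Mki67 had 27 of 33 lower, at 633 and 765 against 545 and 504. The Cd8a cluster had 21 lower, at 1038 and 1151 against 924 and 892. The Cd4 cluster had 12 lower, at 859 and 977 against 1034 and 853, and the Foxp3 cluster 18, at 1838 and 1983 against 1977 and 1499. With Ifi27l2a kept, both DKO libraries lay below both controls in these clusters too. The sums were then 2549 and 2790 against 2327 and 1944 for Cd4, and 4362 and 4777 against 4254 and 3264 for Foxp3. The cluster led by Cd8b1, Ms4a4b and Tcf7 had 16 lower and a median of 0.00, at 1437 and 1404 against 1372 and 1631. These differences within clusters, and those between clusters, were not tested.

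The T-like make-up also differed. The Klra7 cluster was 30.3% and 29.5% of T-like cells in the controls and 17.1% and 24.9% in DKO, and the Cd8a cluster was 34.6% in DKO 1 and 16.1% to 18.6% in the other libraries. Each of the 6 clusters was then weighted by its mean share over the 4 libraries, the same in every library. With that mix 23 of 33 genes were lower and the median log2 change was -0.15. This value is on the log2 scale of mean CPM plus 1 and weights clusters by cells, while the edgeR median of -0.31 rests on pooled UMIs. The 2 values are therefore not directly comparable and do not measure the part of the mix. Macrophage marker genes in T-like cells summed to 410 and 443 scaled CPM in the controls and 244 and 238 in DKO, with all 10 markers detected. That was 2.47%, 2.56%, 1.55% and 1.46% of their level in monocyte/macrophage-like cells. A list of 14 monocyte and macrophage markers, which overlaps the first, gave 5.83%, 6.30%, 5.85% and 5.46%. Taken of the 33 genes' level there, the shares of the first list come to 57.7, 84.1, 47.0 and 31.4 scaled CPM and those of the second to 136, 207, 177 and 117, beside sums of 1962, 2200, 1765 and 1643 in T-like cells. Of 22 dissociation stress genes 17 were higher in DKO T-like cells, and Nr4a1, an immediate-early gene, was called at 131 and 126 against 237 and 225 (edgeR adjusted p = 0.0372). In monocyte/macrophage-like cells 17 of the 22 stress genes were likewise higher, with 0 called, and in neutrophil-like cells 9 were. The part of each in the T-like difference was not tested.

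Calls in T-like cells depended on single libraries and on the filter. Without DKO 1, 5 genes were called in edgeR (Ifit3, Isg15, Bst2, Oas1a and Oas3), without DKO 2, 2 (Usp18 and Eif2ak2), and with no filter on low counts, 5 (Ifit3, Isg15, Bst2, Usp18 and Oas1a). All were lower in DKO. The same settings called 857, 376 and 553 genes in all, against 5 in the reported fit.

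**Figure D5:**
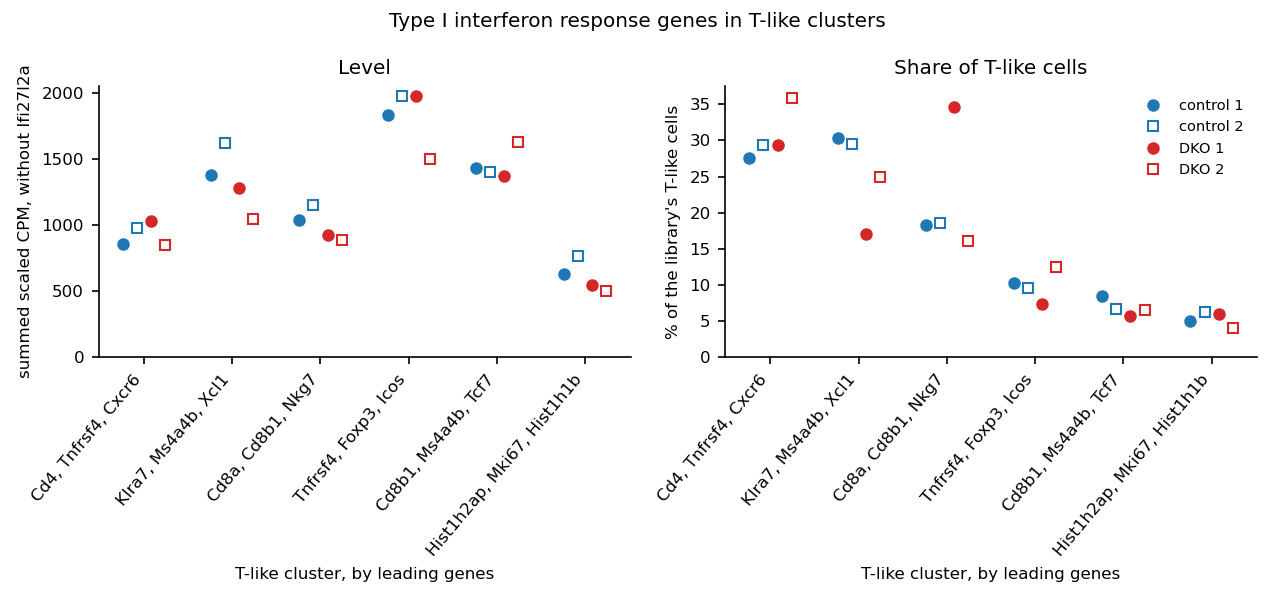
Left, summed scaled CPM of 32 of the genes (Ifi27l2a left out for scale) in each T-like cluster and right, each cluster's share of its library's T-like cells, 1 point per library. Both DKO points lie below both control points in the clusters led by Klra7, by Cd8a and by Hist1h2ap. With Ifi27l2a kept, which is not drawn, this also held for the Cd4 and Foxp3 clusters.

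The change in T-like cells was set against that in monocyte/macrophage-like cells in one model with the library as a block. It was lower in T-like cells for 27 of 33 genes, but 0 were called by edgeR (background 0.585%), and 3 had an unadjusted p under 0.05, all lower (background 4.78%). These were Usp18, at -0.60 ± 0.18 (SE, edgeR adjusted p = 0.215), Eif2ak2 and Irf7. The changes of the 2 cell classes were therefore not shown to differ.

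In dendritic-like cells 24 of 33 genes were lower in DKO, with a median log2 change of -0.20 against 0.00 for all genes. None was called by edgeR (background 0% of 9662 genes) or DESeq2. At an unadjusted p of 0.05, 4 were lower and 0 higher, beside 3.78% and 4.34% of all genes. Groups were separate for 7 of 33 genes, beside 40.7% of all genes. By role, all 4 IFIT genes were lower, with a median of -0.56, as were both genes of the ISG15 system and 4 of 5 sensors, and 0 of 2 Ifi200 genes. Ifit1 was at 47.8 and 49.7 scaled CPM in the controls and 36.8 and 23.7 in DKO, a log2 change of -0.72 ± 0.22 (SE, edgeR adjusted p = 0.595). Bst2 was at 232 and 319 against 209 and 171, and Rsad2 at 53.3 and 49.3 against 42.2 and 30.9. In these 3 genes both DKO libraries lay below both controls. Oas1a was at 13.6 and 30.2 against 13.8 and 8.36, with overlap, and Oas3 at 31.6 and 38.6 against 27.2 and 24.6. Isg15 showed the library order seen in macrophages, at 295, 491, 460 and 159. Ifi205 went the other way, at 187 and 191 against 283 and 198.

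The dendritic-like values depended on which library was left out. DKO 2 was the lowest of the 4 libraries for 24 of 33 genes, and Ifit3 was at 40.3, 35.7, 29.9 and 8.81 scaled CPM in control 1, control 2, DKO 1 and DKO 2. Dropping control 1 gave a median log2 change of -0.39 and dropping control 2 gave -0.08, while dropping DKO 1 gave -0.46 and dropping DKO 2 gave 0.09. Without DKO 1, 12 of the 33 genes were called in edgeR, all lower, among them Ifit3 and Ifit1, but so were 1046 genes in all. Without DKO 2 the 1 member among 80 called genes was Ifi205, higher in DKO. Macrophage markers in dendritic-like cells summed to 812, 725, 694 and 1463 scaled CPM, with 9 of 10 detected, highest in DKO 2, and 19 of 22 dissociation stress genes were higher in DKO. Their part in the difference was not tested. The change differed from that in monocyte/macrophage-like cells for 0 genes in edgeR (background 0.127%), and 3 had an unadjusted p under 0.05, all lower (background 2.45%).

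NK-like cells had low levels and no common direction. Of 28 genes that passed the filter on low counts, 16 were lower and 12 higher, with a median of -0.06 beside 0.00 for all genes. Without DKO 1 the median was -0.29, with 22 lower, and without DKO 2 it was 0.11. The 5 that did not pass were Ifit3, Ifit3b, Oas2, Ifi205 and Phf11d. None of the 28 was called by edgeR (background 0.150%) or DESeq2, and 2 had an unadjusted p under 0.05 (background 8.80%). Oas1a, with 5 to 18 UMIs a library, was at 6.47 and 7.88 scaled CPM in the controls and 1.91 and 2.85 in DKO, and Ifit2 at 4.85 and 5.25 against 11.9 and 7.84. Their differences had opposite signs, each with separate groups. Groups were separate for 9 of the 28, beside 39.3% of all genes. Oasl2 was at 7.55 and 7.44 against 5.74 and 3.92, Bst2 at 76.5 and 92.8 against 82.7 and 58.8, and Parp14 at 84.1 and 66.6 against 65.8 and 61.6. Ifi27l2a was at 29.6, 21.9, 27.6 and 5.70, and was called in edgeR without DKO 1, among 68 genes. Hspa1b, a heat shock gene, was called in NK-like cells at 14.6 and 11.8 against 42.1 and 43.8 (edgeR adjusted p = 0.000241), while 12 of the 22 stress genes were lower. Macrophage markers summed to 414, 458, 235 and 227 scaled CPM in NK-like cells, and their part was not tested.

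In neutrophil-like cells 24 of the 27 genes that passed the filter were lower in DKO, with a median of -0.46, beside 0.01 for all 3551 genes. Mx1, Oas1a, Ifi44, Ifi205, Phf11d and Dhx58 did not pass. None was called by edgeR (background 0.0845%) or DESeq2, 2 had an unadjusted p under 0.05, both lower (background 4.87%), and 13 had DKO below control without overlap (background 18.8%). Usp18 was at 165 and 180 scaled CPM in the controls and 108 and 63.3 in DKO, with 12 to 102 UMIs a library, at -0.96 ± 0.32 (SE, edgeR adjusted p = 0.375). Stat2 was at 141 and 145 against 95.7 and 84.3, Ifit1 at 917 and 895 against 753 and 480, and Ifih1 at 179 and 154 against 120 and 100.2. In these 4 genes the groups were separate. By role, all 4 IFIT genes, 4 of 4 sensors tested and both genes of the ISG15 system were lower. Ifit3 overlapped, at 217 and 360 against 230 and 79.1. DKO 2, with 83 of these cells, was the lowest library for 27 genes. Without DKO 1, 3 genes were called in edgeR, Isg15, Ifit2 and Ifit3, all lower, among 49 genes called in the class. The median was -0.26 without control 2, -0.78 without DKO 1 and -0.17 without DKO 2. Macrophage markers in this class summed to 1086, 978, 649 and 648 scaled CPM, with all 10 detected, and their part was not tested. Across all genes of this class, the median log2 change was 0.16 without the scaling factor and 0.01 with it, so these values are relative to the scaled median.

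Over all CD45+ cells together, 28 of 33 genes were lower in DKO, with a median of -0.20 beside 0.01 for all genes. In such sums alone, fewer cells of a class and less RNA per cell cannot be told apart. The mix of classes did differ. Monocyte/macrophage-like cells were 5085 and 5193 of 7642 and 7416 cells in the controls, and 3363 and 2388 of 6177 and 4646 in DKO. T-like cells, lower in these genes, numbered 1546 and 1116 in the controls and 1845 and 1355 in DKO. The part of this mix in the pooled difference was not tested. None of the genes was called by edgeR (background 0% of 14427 genes) or DESeq2, and 0 had an unadjusted p under 0.05 (background 12.5%). Groups were separate for 3 genes with DKO lower and 1 with DKO higher, beside 22.3% and 24.6% of genes. Oas1a was at 8.91 and 23.5 scaled CPM in the controls and 8.52 and 5.41 in DKO, Ifi35 at 49.4 and 67.2 against 47.8 and 42.4, and Cmpk2, a nucleotide kinase, at 16.9 and 25.4 against 16.5 and 14.7. In these 3 genes both DKO libraries lay below both controls, and control 2 stood above the rest. Mx1, a GTPase against influenza, was at 15.3 and 20.2 against 16.1 and 11.6, and Ifi205 at 35.6 and 47.4 against 49.7 and 47.9. Control 2 was the highest library for 29 of 33 genes and DKO 2 the lowest for 27. Without control 1 the median was -0.47, without control 2 it was 0.06, and without DKO 1 it was -0.46.

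Other genes of the pathway gave context. Of 8 receptors and kinases, 0 were called in any class, with 1 at an unadjusted p under 0.05 in monocyte/macrophage-like cells. This was Jak2, a kinase used by the interferon gamma receptor, at 99.4 and 112 scaled CPM in control and 131 and 149 in DKO (edgeR adjusted p = 0.468). Among upstream sensors and adaptors, 15 were tested in monocyte/macrophage-like cells, with 7 lower, 8 higher and 0 called. Ikbke, a kinase upstream of the interferon genes, had -0.58 ± 0.16 (SE, edgeR adjusted p = 0.441) and Irf1 0.41 ± 0.13 (edgeR adjusted p = 0.465). Of the 12 negative regulators tested, 0 were called in this class and 6 were lower. Socs1, which blocks the receptor kinases, was at 46.8 and 62.2 against 66.3 and 68.9. In T-like cells 10 of the 12 negative regulators were higher in DKO and 0 were called.

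A further list of 69 interferon-stimulated genes outside the 33 was also chosen with earlier results known. It holds close relatives of the 33, such as Mx2 and Oas1b, and was read in the same libraries, so it is not independent of them. It went with the 33 in T-like cells. There 44 of 60 tested were lower, with a median of -0.14, 12 lower and 2 higher at an unadjusted p of 0.05 (7.26% and 7.54% of all genes), and 0 called. Ms4a4c, a membrane protein induced by interferon, was at 89.7 and 102 scaled CPM in the controls and 63.4 and 66.7 in DKO, at -0.56 ± 0.11 (SE, edgeR adjusted p = 0.0994). Epsti1 was at 299 and 329 against 238 and 222 (edgeR adjusted p = 0.195). In monocyte/macrophage-like cells 39 of 63 tested were lower, with a median of -0.06 and 0 called, and the 2 with the smallest p pointed in opposite directions, Ifit1bl1 at -0.73 and Parp9 at 0.40.

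Genes induced mainly by interferon gamma, a list that shares Irf1 and Socs1 with those above, had the other sign in monocyte/macrophage-like cells. Of 24 tested, 22 were higher in DKO and 2 lower, with a median of 0.38, 8 higher and 0 lower at an unadjusted p of 0.05, and 0 called. Gbp2b, a guanylate-binding GTPase, was at 9.88 and 8.97 scaled CPM in the controls and 29.2 and 45.0 in DKO, at 1.97 ± 0.22 (SE, edgeR adjusted p = 0.209). Gbp8 was at 36.1 and 47.0 against 64.4 and 64.5 (edgeR adjusted p = 0.368). Both DKO libraries lay above both controls for 13 of the 24. The shares over all genes, given above, were 4.28% for the unadjusted p and 20.6% for separate groups. In T-like cells 12 of 22 were higher and 10 lower, with a median of 0.07, and Cxcl9 was at 16.1 and 21.6 against 12.6 and 8.76 (edgeR adjusted p = 0.199). In neutrophil-like cells Nos2, which makes nitric oxide, was lower in DKO and called just under the threshold, at 117 and 104 against 26.9 and 15.8 (edgeR adjusted p = 0.0499). The class held only 176769 UMIs in DKO 2, so the value there rests on few UMIs. Nos2 also led a monocyte/macrophage sub-cluster, and macrophage markers in neutrophil-like cells were likewise lower in DKO, at 1086 and 978 against 649 and 648. Their part was not tested.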

How the data were processed

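The deposited count tables give UMIs per gene and cell barcode. Per the file headers they were written by software version 3.1.0, and per the submitters' processing notes Cell Ranger, Seurat 3.1.0 and R 3.6.0 were used, with the builds mm10 and GRCh38 named; aligner settings are not given in the sources used here. Barcodes with fewer than 200 genes, fewer than 500 UMIs or more than 10% mitochondrial UMIs were dropped, and the cells with the highest Scrublet scores (0.8% per 1000 barcodes) were removed as doublets. Cells were clustered (scanpy, 2000 variable genes without the interferon lists, 30 components, Leiden resolution 1) into 24 clusters, named from marker lists, so classes are rebuilt here. UMIs were summed per library and class. Classes with at least 50 cells in every library were tested with edgeR 4.0.16 (filterByExpr, TMM, quasi-likelihood, Benjamini-Hochberg adjustment over all genes, threshold 0.05), with DESeq2 1.42.0 as an alternative. The tests were checked on simulated counts.

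Total UMIs per library were 80032966, 74878771, 71381613 and 57458026. The limits given for counts of 0 cover counting error only. The values after ± are SEs of the edgeR fit or SDs over 2 libraries, so they take in the spread between libraries. The labels state that each library pools 2 tumours, and nothing says which tumours share a day, so p-values measure the spread between these libraries. An exact permutation of 2 against 2 libraries cannot go below p = 0.333, so none was used. The 33 genes and all lists were chosen with earlier results of these data known. All 33 genes are named. Values per library are given for the most abundant gene of each role group, the 5 with the smallest p in each class, any called gene, and the called genes or the 2 with the smallest p of the other lists, with others added after their values were seen; a gene of those lists is not reported here. The ISRE core was searched in RefSeq windows of GRCm38.p6, and gene coordinates are from GENCODE vM21 on GRCm38, which mm10 names.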

Additional observations from a re-analysis of the deposited data

How the results depend on the processing

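Results were recomputed under the alternatives that apply to them, 1 choice at a time. Clustering alternatives do not apply to all CD45+ cells. The differences between classes were run under 6 alternatives, and the same mix of clusters in every library was run for 2 medians. Of 76 counts of called genes outside the differences between classes, where every reported count was 0, 65 stayed at 0 and 11 were higher. Of 72 medians 62 moved by no more than the spread between libraries and 10 by more. That spread was 0.22 in monocyte/macrophage-like cells, so a change of sign could lie within it. There the reported median of -0.07 became 0.11 without DKO 2, 0.08 with the same mix of sub-clusters and 0.01 with a stricter filter on cells. The value of 0.08 weights sub-clusters by cells rather than by UMIs, so it differs in more than the mix. With no filter on low counts, 5 genes were called in T-like cells and 2 in the difference between T-like and monocyte/macrophage-like cells. With a stricter filter on cells the T-like median was -0.26. With the same mix of T-like clusters in every library, an alternative chosen after seeing the data, it was -0.15 on the scale of mean CPM, with clusters weighted by cells. Leaving out 1 library left a group with a lone library, assumed to vary like the others. Then the count called ran from 0 to 1 in monocyte/macrophage-like cells (1 without control 1), 0 to 5 in T-like cells (5 without DKO 1, 2 without DKO 2), 0 to 1 in NK-like cells (1 without DKO 1), 0 to 12 in dendritic-like cells (12 without DKO 1, 1 without DKO 2) and 0 to 3 in the difference between dendritic-like and monocyte/macrophage-like cells (3 without DKO 1). In neutrophil-like cells it was 3 without DKO 1. The medians ran from -0.30 to 0.17 in monocyte/macrophage-like cells, -0.35 to -0.23 in T-like cells, -0.46 to 0.094 in dendritic-like cells, -0.29 to 0.11 in NK-like cells, -0.78 to -0.17 in neutrophil-like cells and -0.47 to 0.062 over all CD45+ cells. The cause of these moves was not tested beyond the smaller number of libraries.

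With the replicate number as a block, 0 genes were called in any class, and the T-like median was -0.31. Same-numbered libraries did not deviate together, with correlations across genes from -0.357 to -0.111, so the numbers were not taken to pair them. With the crossed pairing as the block, chosen after seeing the data, 10 genes were called in T-like cells, 3 in dendritic-like cells, 1 in neutrophil-like cells and 0 in the other classes, among 1194, 232 and 83 genes called in those 3 classes. Depth limits NK-like and neutrophil-like cells most, where 5 and 6 of the 33 genes did not pass the filter on low counts.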
